A study of Mus musculus with 121 samples.

Results

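The squamous cell carcinoma nrs1 was followed from day 5 to day 20 after a single dose of 30 Gy of carbon ions, a beam of heavy charged particles. The 2 arrays labelled day 20 were set against the 2 labelled day 5, so 4 arrays of the study make up the comparison, out of 40 carbon and 81 gamma-ray arrays. Per the labels, nrs1 arose spontaneously in a C3H/He mouse and was grown as a transplant in the hind leg of male C3H/HeMs mice, where the beam was given locally. Total RNA of the dissected tumour was labelled with Cy5 and hybridised to 1-colour CodeLink arrays. Neither day is an unirradiated state: both groups had received the beam, and no unirradiated nrs1 array was used here. Whether the arrays of 1 day come from separate mice is not in the labels, nor is whether the tumours of day 20 were shrinking or growing again. The p-values measure only the spread between arrays of a group, pooled over the carbon groups, and that spread may be technical. The other tumours used for comparison had the same dose, beam and days: the radiation-induced fibrosarcoma rif8520, the spontaneous fibrosarcoma nfsa, and the spontaneous mammary carcinomas mmca and mca4 (16 arrays). The second squamous carcinoma, scc7, was sampled at day 5 and day 42 (4 arrays). The remaining carbon arrays were of mmca and mca4, unirradiated (0 Gy) and at hour 6, day 1 and day 3 after 30 Gy. These entered only the shared spread, the filter and statements about all carbon groups.

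Squamous epithelium renews itself from a basal layer of dividing cells that contain the keratins Krt5 and Krt14 and the transcription factor p63. Cells that leave this layer stop dividing, switch keratins, and assemble small proline-rich, late cornified envelope and other cross-linked proteins into a tough envelope. Well differentiated squamous carcinomas keep part of this programme. Radiation stops division, kills cells and recruits immune cells, and the balance of dividing and differentiating cells can shift while a tumour recovers.

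The unit throughout is the log2 of array intensity, so that a change of 1 is a 2-fold change, and errors are standard errors (SE) of a limma model fitted over the 40 carbon arrays. A gene is said to rise or fall at an adjusted p (Benjamini-Hochberg) under 0.05. Replicate arrays resembled each other closely, with Pearson r across genes of 0.996 at day 5 and 0.994 at day 20, against 0.972 to 0.973 between days. The median SD of a gene between the 2 arrays was 0.0808 at day 5 and 0.0897 at day 20. The nrs1 arrays lacked a value for 0.544 to 1.23% of probes. A test on single genes by exact permutation of 2 against 2 arrays cannot go below p = 0.333, so the calls rest on the spread shared over all carbon groups.

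Of 14977 genes tested, 4558 rose from day 5 to day 20 (30.4%) and 2488 fell (16.6%), and the median change of all genes was 0.11. Changes of 2-fold or more numbered 399 rises and 491 falls. Quantile normalization of the arrays gave 3597 rises and 3204 falls and a median of 0.035, so the counts of small rises and of small falls both depend on the scaling. Every count of a gene list below is to be read against these percentages. A filter on dim probes kept genes by their mean over all carbon arrays, so a list's tested members are not all its members.

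The squamous label was borne out by the markers at day 5. Against the mean of the 4 other tumours, nrs1 was higher by 7.51 ± 0.10 for Krt5, 6.58 ± 0.098 for Krt14, 4.89 ± 0.086 for Trp63 (p63) and 5.25 ± 0.080 for the wound keratin Krt6a (adjusted p at most 2.42e-30). Epcam, an epithelial surface protein, was higher by 3.44 ± 0.095, with a mean of 6.96 in nrs1 against 7.23 in mmca, 7.18 in mca4, 0.03 in nfsa and -0.39 in rif8520, so it separates carcinomas from fibrosarcomas only. Vim, the mesenchymal filament vimentin, was lower (-1.25 ± 0.10). In this comparison 39.7% of 14970 genes were higher and 34.3% lower. Of 27 tested genes of differentiating and cornified keratinocytes 26 were higher (median 4.17), although 2 of the 27 passed the filter only through the nrs1 arrays, and of 21 basal genes 19 were higher and 2 lower (median 2.35). Krt10, Ivl and Flg are on the array, but their probes did not pass the filter.

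Many of the largest falls from day 5 to day 20, among them the first 2, were in genes of late squamous differentiation. The next were Ido1, Gcnt3, S100g and Pllp (-4.25 to -3.60), described further on. Kprp, a keratinocyte proline-rich protein, read 4.49 and 4.56 at day 5 and -0.11 and -0.22 at day 20. It fell by 4.69 on the log2 scale (SE 0.31, 25.7-fold lower, adjusted p = 6.62e-14). Lce3a, a late cornified envelope gene, read 6.57 and 6.61 and then 1.92 and 2.01, a change of -4.63 ± 0.49 (adjusted p = 3.09e-09). For both genes the days are far apart and replicates nearly coincide. Crct1, a cysteine-rich gene of the same locus, went from 6.21 and 6.28 to 2.65 and 2.67. Rptn, which encodes the envelope protein repetin, went from 6.64 and 6.59 to 3.22 and 3.38. Cdsn (corneodesmosin, an adhesion protein of the cornified layer) changed by -2.98 ± 0.27, Klk7 (a protease that cleaves it) by -3.25 ± 0.23 and Cnfn (cornifelin) by -2.91 ± 0.13. Kprp and Lce3a stand outside the list of differentiating and cornified keratinocytes. Of that list, 39 genes long with 27 tested, 23 fell, 1 rose and 3 did not pass, with a median of -1.89. The summed linear intensity of the tested members was 1696 to 1734 on the day 5 arrays and 564 to 587 at day 20, still above the 36.3 to 115 of the 4 other tumours. Fewer differentiating cells and less RNA per cell cannot be told apart in such bulk samples.

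**Figure D1:**
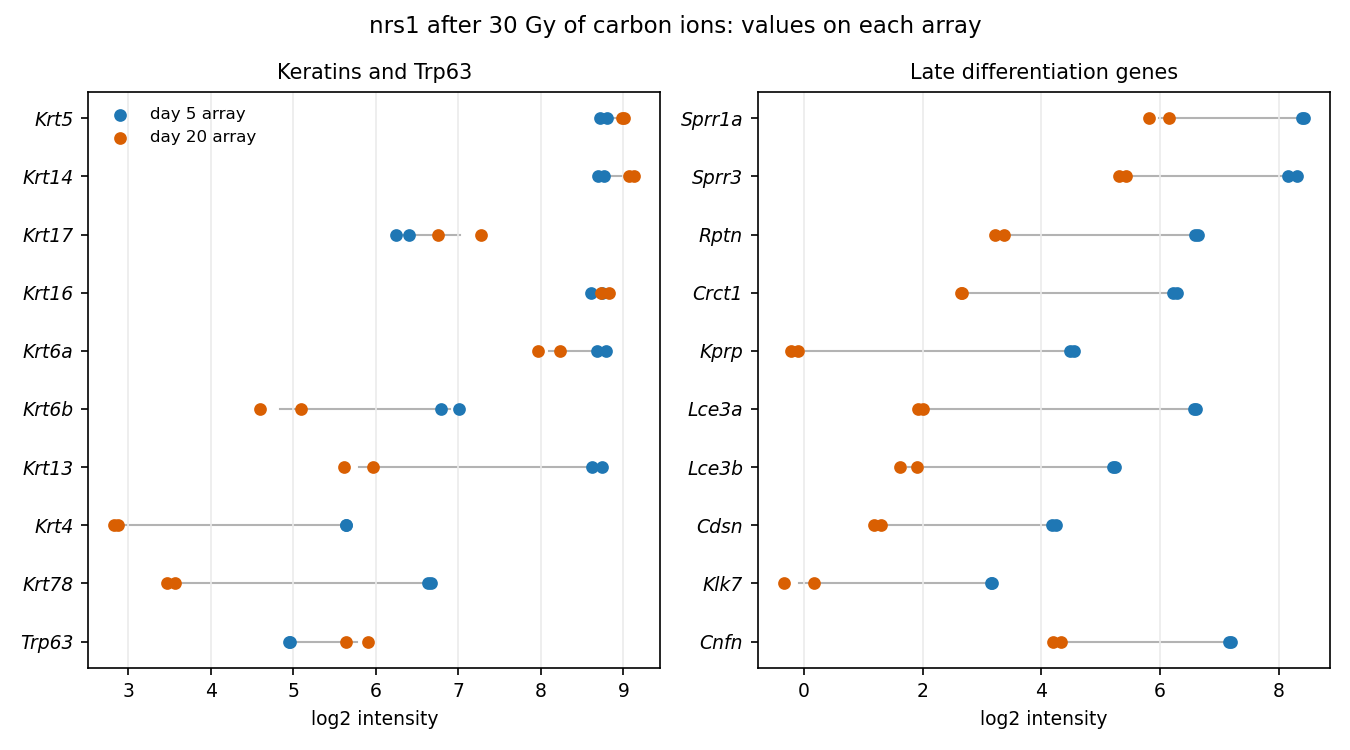
Log2 intensity of 10 keratin and p63 genes (left) and 10 late differentiation genes (right) on each nrs1 array, with day 5 in blue and day 20 in orange and a grey line between the 2 means. Krt5 and Krt14 stay near 9, Krt13, Krt4 and Krt78 drop by about 3, and every gene on the right is lower on both day 20 arrays.

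The 1 gene of that list that rose was Dsg1b, a desmoglein of desmosomes, which read 3.37 and 3.42 at day 5 and 6.24 and 6.26 at day 20 (2.86 ± 0.085, adjusted p = 8.16e-23). Its group means in the other 19 carbon groups lay between 3.06 and 3.80. It belongs to a set of genes described at the end that were high on both day 20 arrays of nrs1 and near level elsewhere.

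Genes that squamous cells switch on in wounds and in activated states fell with them. Sprr3, a small proline-rich envelope precursor, read 8.31 and 8.16 and then 5.42 and 5.30 (-2.88 ± 0.15, adjusted p = 3.44e-16). Its neighbour Sprr1a read 8.39 and 8.42 and then 6.16 and 5.81 (-2.42 ± 0.27). S100a7a, an antimicrobial calcium-binding protein, changed by -2.36 ± 0.12, the kallikrein protease Klk6 by -2.07 ± 0.18 and the wound keratin Krt6b by -2.05 ± 0.23. Of 16 tested members of this list 13 fell and 1 rose (median -1.81), and they had a summed intensity of 3473 to 3597 at day 5 and 1956 to 2126 at day 20. The members did not all move: Krt16, a partner of the Krt6 keratins, read 8.61 and 8.74 and then 8.72 and 8.82 (0.10 ± 0.095, adjusted p = 0.405).

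Many of these genes lie side by side in the epidermal differentiation complex, a cluster of genes for envelope and S100 proteins. In RefSeq gene order the run from S100a1 to S100a10 holds 70 protein-coding genes, of which 42 were tested. Among the tested genes 26 fell, 6 rose and 10 did not pass (median -1.57), and 28 fell and 4 rose after quantile normalization. All 10 tested late cornified envelope (Lce) genes fell, by changes of -4.63 to -0.85, and so did all 10 tested Sprr genes, by -2.88 to -0.76. The S100 genes at the 2 ends of the run behaved otherwise: of 14 tested, 2 fell and 5 rose, among them S100a4 (0.79 ± 0.13), S100a1 (0.60 ± 0.12) and S100a10 (0.41 ± 0.12), while S100a9 gave -0.12 (adjusted p = 0.378). After quantile normalization 3 S100 genes rose and 4 fell. Lor, which encodes the envelope protein loricrin and stands between the 2 parts, rose from 1.13 and 1.09 to 2.13 and 2.44 (1.17 ± 0.14). Group means of Lor at the compared days lay between 0.17 and 1.28 in the other tumours, scc7 included. At day 5 nrs1, with a mean of 1.11, was thus not set apart from them by this probe. This run was delimited after the changes of its members were known.

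**Figure D2:**
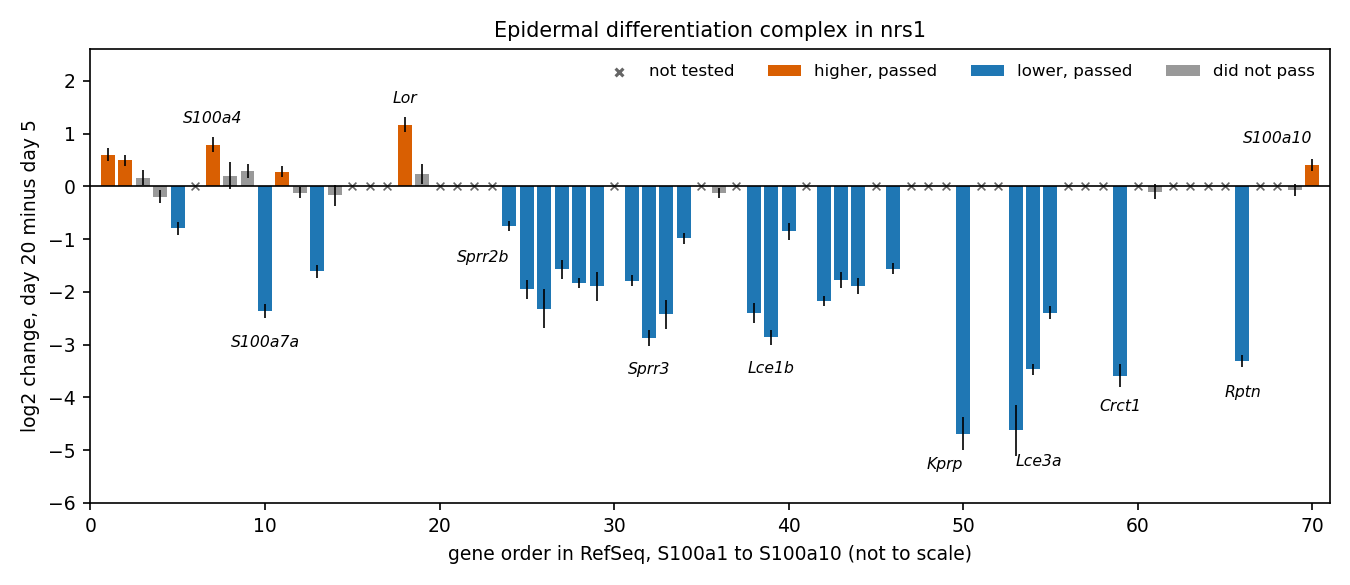
Log2 change from day 5 to day 20 in nrs1 (bars, with the SE) of the 42 tested genes of the epidermal differentiation complex, in RefSeq gene order from S100a1 to S100a10; crosses mark the 28 genes not tested. Blue bars fell, orange rose and grey did not pass: the Sprr and Lce genes in the middle are all lower, and the S100 genes at both ends are mixed.

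Promoters were searched on both strands for TGACTCA, the sequence bound by AP-1 factors. They were those of all tested members of the 2 squamous lists, whether or not they fell, and of the 15 largest falls. Each window holds 250 bases before and 50 after a RefSeq start (GRCm38.p6). The motif occurs in 5.20% of all 32851 windows of this kind. It was found in 6 of 14 windows of the tested wound and activation genes (11 of 16 genes matched) and in 6 of 23 windows of the differentiating and cornified list (18 of 27 genes matched). It was found in none of the 12 windows of the 15 largest falls (11 genes matched). Sprr1a holds 2 copies and Sprr2e, which fell from 6.32 and 6.33 to 4.02 and 3.99, holds 1. Their windows (Sprr1a at chr3:92485832-92486131, minus strand, and Sprr2e at chr3:92351893-92352192, plus strand) are shown 5′ to 3′ because they carry the motif in 2 genes of this run that fell, with the motif or its reverse complement in capitals.
Sprr1a: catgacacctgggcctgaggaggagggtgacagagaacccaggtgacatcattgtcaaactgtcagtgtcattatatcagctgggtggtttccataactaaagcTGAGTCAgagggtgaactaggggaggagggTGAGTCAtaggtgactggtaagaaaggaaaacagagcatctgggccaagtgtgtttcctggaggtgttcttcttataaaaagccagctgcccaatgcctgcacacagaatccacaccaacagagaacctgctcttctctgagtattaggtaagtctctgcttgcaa
Sprr2e: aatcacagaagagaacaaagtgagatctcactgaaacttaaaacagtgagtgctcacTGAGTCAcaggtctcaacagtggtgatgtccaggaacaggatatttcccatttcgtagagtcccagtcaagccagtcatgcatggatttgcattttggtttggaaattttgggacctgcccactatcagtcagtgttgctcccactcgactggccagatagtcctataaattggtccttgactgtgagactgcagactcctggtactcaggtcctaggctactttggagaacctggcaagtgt
A match is a description of the letters, and no binding was measured.

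Of 34 keratin genes tested 12 fell and 5 rose. The rises were in Krt14, Krt17, Krt42, Krt79 and Krt8, and the falls included keratins of hair and simple epithelia such as Krt35, Krt86 and Krt7. Krt78, found in the upper layers of stratified epithelia, read 6.67 and 6.64 at day 5 and 3.57 and 3.47 at day 20 (-3.14 ± 0.081, adjusted p = 3.81e-24). The mucosal pair Krt13 and Krt4, named after their values were seen, read 8.62 and 8.75 against 5.96 and 5.62, and 5.64 and 5.64 against 2.88 and 2.83. Krt13 stayed far above the other tumours, whose group means at days 5 and 20 lay between -3.55 and -2.05. Krt6a fell by 0.64 on the log2 scale (-0.64 ± 0.10). The basal keratin Krt5 read 8.71 and 8.80 and then 9.00 and 8.99, which did not pass (0.24 ± 0.13, adjusted p = 0.138). Its partner Krt14 gave 0.37 ± 0.12 (adjusted p = 0.0148), a call lost without replicate 2 of day 20 (adjusted p = 0.082), without replicate 1 of day 5 (0.0907), after quantile normalization (0.741) and with the gamma-ray arrays in the fit (0.349).

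Most basal genes were level or higher. Trp63 read 4.96 and 4.95 and then 5.64 and 5.91 (0.81 ± 0.11, adjusted p = 2.16e-07). Pkp1, a desmosome plaque protein, rose by 1.02 ± 0.090, the Notch ligand Jag2 by 1.01 ± 0.10 and Lamb3 and Itga3, parts of the basement membrane and of its receptor, by 0.93 ± 0.11 and 0.82 ± 0.14. Of 21 tested basal genes 11 rose and 2 fell (median 0.37), and after quantile normalization the median was 0.081 (10 rose and 3 fell). The members that fell were Dsg3, a desmoglein of the lower layers (-0.67), and the transcription factor Bcl11b (-0.34). The list's summed intensity was 1365 to 1417 at day 5 and 1710 to 1734 at day 20. Irx4 was the only tested member at the floor, on 1 of the 4 arrays.

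Genes of cell junctions and secretory epithelium fell in part. Muc1, a membrane mucin, read 4.09 and 4.03 and then 1.54 and 1.65 (-2.47 ± 0.078). Ocln (occludin) and the claudins Cldn1 and Cldn4, which build tight junctions, changed by -2.09 ± 0.11, -1.97 ± 0.11 and -1.59 ± 0.23. The epithelial transcription factor Elf3 changed by -1.88 ± 0.35. With missing values set to the floor, Cldn1 and Elf3 did not pass (adjusted p = 0.0866 and 0.220). Of 27 tested genes of this list 13 fell, 1 rose and 13 did not pass (median -0.40), among them Epcam, which read 6.87 and 7.04 and then 6.90 and 6.70, with overlapping days. After quantile normalization Epcam changed by -0.51 (adjusted p = 0.00522). Large falls outside the lists were Gcnt3, a mucin glycosyltransferase, from 2.55 and 2.71 to -1.38 and -1.28, S100g, a calcium-binding protein, from 3.35 and 3.36 to -0.59 and -0.48, and Pllp, the membrane protein plasmolipin, from 3.60 and 3.62 to 0.01 and 0.03. Ly6g6c and Serpinb11 were among the 15 largest falls too (-3.16 ± 0.14 and -2.92 ± 0.19). Lce3b completes them, with 5.24 and 5.21 at day 5 and 1.62 and 1.90 at day 20.

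Genes of cell division rose together. Ccna2, the cyclin of S phase and mitotic entry, read 3.85 and 3.97 at day 5 and 5.47 and 5.45 at day 20 (1.55 ± 0.12, adjusted p = 3.22e-12). Ccnb2, a mitotic cyclin, read 5.27 and 5.12 and then 6.30 and 6.51 (1.21 ± 0.13), and Aspm, a spindle pole protein, 2.24 and 2.36 and then 3.51 and 3.58 (1.24 ± 0.10). Cdc25c, the phosphatase that activates the mitotic kinase, rose by 1.33 ± 0.11 and the kinesin Kif18a by 1.21 ± 0.10. Of 42 tested mitotic genes 40 rose and 0 fell (median 0.86). The count was 41 and the median 0.79 after quantile normalization. Their summed intensity was 501 to 507 at day 5 and 956 to 972 at day 20, so the days did not overlap. Mki67 is on the array and did not pass the filter.

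Genes of DNA replication rose by nearly as much. Uhrf1, which passes DNA methylation to new strands, rose by 1.20 ± 0.11, the nucleotide enzymes Dut and Tk1 by 1.07 ± 0.12 and 1.07 ± 0.14, and Chaf1b and Rfc4, which load histones and clamps on new DNA, by 1.02 ± 0.11 and 1.00 ± 0.10. Of 40 tested members 36 rose and 0 fell (median 0.75). Repair and checkpoint genes followed in part: 19 of 37 rose and 1 fell (median 0.31), led by the uracil glycosylase Ung (1.12 ± 0.12) and the Fanconi ligase Fancl (1.02 ± 0.090). Of 11 tested genes of senescence and of brakes on the cycle 5 rose and 5 fell. Cdkn1c (p57) changed by -1.90 ± 0.093, Cdkn2b (p15) by -0.75 ± 0.10, Cdkn2a by 0.36, Cdkn2c (p18) by 0.47 and Cdkn2d (p19) by 0.71 ± 0.093. Lmnb1, a lamin that is lost in senescent cells, rose by 0.82 ± 0.12.

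The windows of the mitotic genes were searched on both strands for CCAAT, bound by NF-Y, and TTTGAA, the letters of the cell cycle homology region of mitotic promoters. The 2 motifs can share 1 end base. Of 36 windows (34 of 42 genes matched) 29 held CCAAT, 28 TTTGAA and 26 both. Of all windows 37.4% held CCAAT, 17.9% TTTGAA and 6.95% both, and of 44 windows of replication genes (35 of 40 matched) 6 held both. The windows of Aspm (chr1:139454523-139454822, plus strand) and Ccnb2 (chr9:70421505-70421804, minus strand) are shown 5′ to 3′ as examples that rose by similar amounts, with the motifs on either strand in capitals.
Aspm: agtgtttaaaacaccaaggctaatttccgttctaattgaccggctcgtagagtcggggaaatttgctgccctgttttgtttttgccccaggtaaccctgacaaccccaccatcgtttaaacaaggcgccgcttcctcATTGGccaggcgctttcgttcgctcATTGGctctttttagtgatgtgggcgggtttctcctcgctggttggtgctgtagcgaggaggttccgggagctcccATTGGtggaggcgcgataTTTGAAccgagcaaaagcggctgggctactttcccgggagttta
Ccnb2: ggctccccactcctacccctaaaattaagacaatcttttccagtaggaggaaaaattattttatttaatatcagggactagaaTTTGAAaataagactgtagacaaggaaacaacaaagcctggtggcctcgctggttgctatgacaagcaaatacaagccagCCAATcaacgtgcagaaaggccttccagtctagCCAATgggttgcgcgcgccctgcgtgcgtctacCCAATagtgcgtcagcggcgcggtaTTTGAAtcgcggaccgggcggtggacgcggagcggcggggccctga
The match says nothing about which factor acted in these tumours.

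Genes of low oxygen and glycolysis rose. The mitophagy gene Bnip3 rose by 1.40 ± 0.10 (adjusted p = 1.16e-12), and the oxygen sensor Egln3 and the carbonic anhydrase Car9 rose by 1.31 ± 0.11 and 1.28 ± 0.10. Of 22 tested hypoxia genes 16 rose and 2 fell. Their median change was 0.66, beside 2.22 in rif8520, 1.60 in nfsa, -0.13 in mmca and -0.33 in mca4. Aldoc, a glycolytic aldolase, rose from -0.33 and -0.35 to 1.54 and 1.49 (1.86 ± 0.10), and the glucose carrier Slc2a1 by 0.82 ± 0.15. Of 16 tested glycolysis genes 15 rose and 0 fell (median 0.63), and 11 rose after quantile normalization (0.40). Of 19 cholesterol genes 13 rose and 2 fell, led by Dhcr7 (1.49 ± 0.093, one of the day 20 set described at the end) and Idi1 (1.23 ± 0.11), enzymes of the late and middle pathway. Insig1, which holds the pathway back, changed by -1.20 ± 0.29 (adjusted p = 0.00109), a call lost without replicate 2 of day 20 (0.222), where it read -3.02 against -1.42 on the other array.

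Abundant housekeeping genes shifted by little. Of 40 tested genes of the respiratory chain 33 rose and 0 fell (median 0.49), of 35 ribosomal protein genes 22 and 0 (0.33) and of 30 proteasome genes 18 and 0 (0.32). After quantile normalization the rises numbered 10, 2 and 6, and the medians were 0.17, 0.043 and 0.040, so these shifts depend on the scaling of the arrays. The cystine carrier Slc7a11 rose by 1.79 ± 0.13 and the iron receptor Tfrc by 1.24 ± 0.10. With missing values set to the floor Slc7a11 did not pass (adjusted p = 0.115).

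Probes for variable segments of antibody chains gave the largest rises. Igkv6-20, a variable segment of the kappa light chain, read -1.39 and -1.24 at day 5 and 5.98 and 6.09 at day 20 (7.35 ± 0.20, 163-fold, adjusted p = 1.08e-23). Igkv15-103 read 0.33 and 0.66 and then 7.05 and 6.74 (84.6-fold higher), and the heavy chain segment Ighv1-54 -1.28 and -1.21 and then 5.10 and 4.98 (6.28 ± 0.13). On every one of these probes both day 20 arrays lay far above both day 5 arrays. Of 16 tested immunoglobulin chain genes 13 rose and 1 fell (median 3.50). The rises include Igkv19-93 (5.90), Igkv4-77 (5.25), Igkv9-120 (4.94), Igkv4-91 (4.51) and Igkv4-68 (4.28). They also include Ighv1-33 (1.98) and Ighv6-6 (1.81), which are in the day 20 set described at the end. Igkv4-55 fell, from 5.80 and 5.87 to 5.19 and 5.30. The constant chain gene Ighm rose by only 0.69 ± 0.10. Igha, another constant chain gene, did not pass (-0.10, adjusted p = 0.635), and neither did the segment Ighv1-77. Tnpo3, a nuclear import factor, and Wfdc18 complete the 15 largest rises with Retnla, Itgb3, Mzb1, Ms4a1 and Tpsb2. The V segments are near-identical copies within families, so which member a probe reports is uncertain.

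Some genes outside the immunoglobulin loci moved the same way. Mzb1, a chaperone of antibody secretion, read -0.05 and -0.08 and then 4.61 and 4.76 (4.75 ± 0.17, 27.0-fold), and Jchain, which links antibody chains, 3.75 and 3.63 and then 6.55 and 6.78 (2.97 ± 0.096). Ms4a1, the B cell antigen CD20, read -1.76 and -2.38 and then 2.20 and 2.48 (4.41 ± 0.31). Cxcl13, the chemokine that draws B cells, rose by 3.26 ± 0.15, the receptor subunit Cd79b by 1.59 ± 0.12 and the plasma cell receptor Tnfrsf17 by 1.36 ± 0.19. Group means of Cxcl13 also went from -0.56 to 2.73 in rif8520 and from 0.44 to 4.47 in nfsa. Those of Mzb1 went down in these 2 tumours, from 0.60 to -1.15 and from -0.78 to -1.62. Of 17 tested B and plasma cell genes 9 rose in nrs1, 2 fell and 6 did not pass (median 0.39). The 2 that fell were Blnk (-0.76) and Cd72 (-0.38). The B cell factor Pax5 gave -0.16 (adjusted p = 0.277) and Pou2af1 gave 0.011 (adjusted p = 0.946). The summed intensity of the list was 55.8 to 57.5 at day 5 and 170 to 188 at day 20, against 36.7 to 114 in the 4 other tumours, and no member was at the floor on an nrs1 array.

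**Figure D3:**
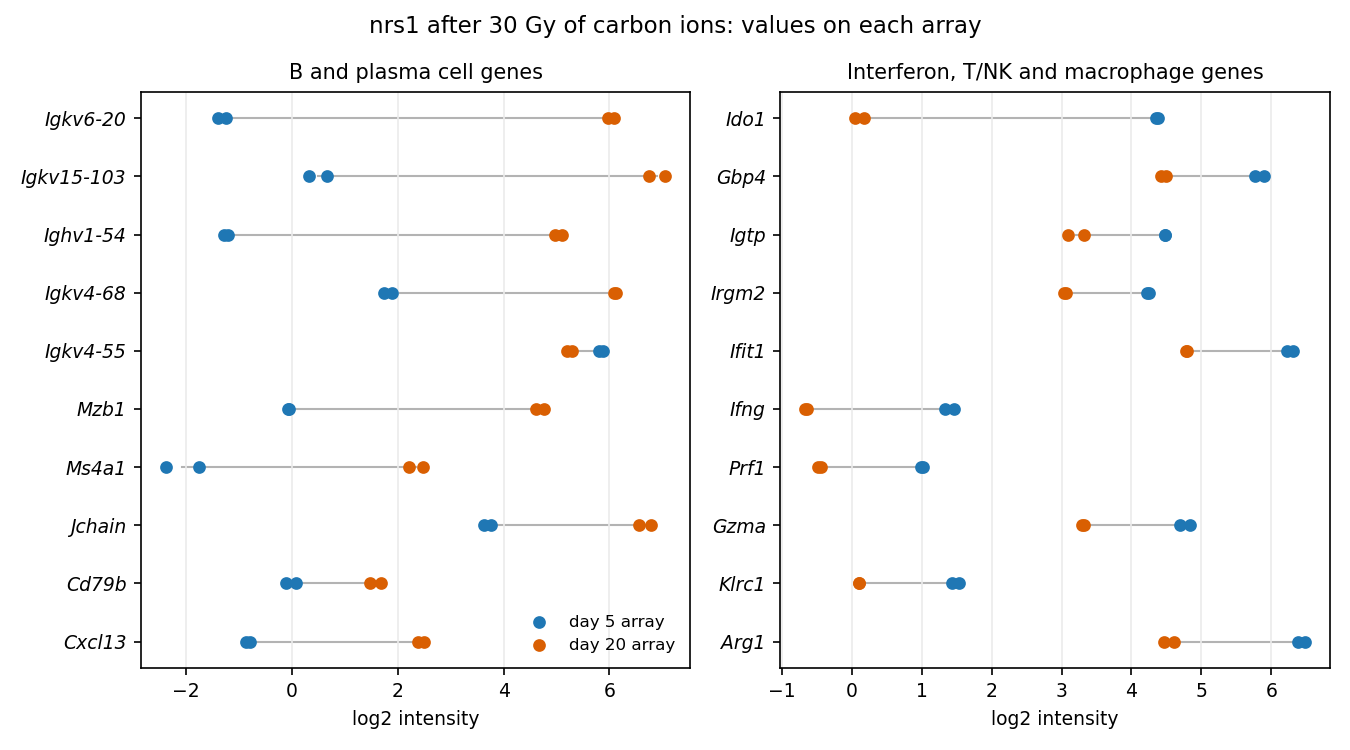
Log2 intensity of 10 B and plasma cell genes (left) and 10 interferon, T and NK cell and macrophage genes (right) on each nrs1 array, with day 5 in blue and day 20 in orange and a grey line between the means. All genes on the left but Igkv4-55 are higher at day 20, and all genes on the right are lower.

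Some mast and myeloid genes were higher at day 20. Retnla, a secreted protein of alternatively activated macrophages, read -1.12 and -1.25 and then 3.99 and 3.94 (5.15 ± 0.32, adjusted p = 6.59e-14). Its group mean also went from -2.44 to 3.46 in mmca and from -1.94 to 3.98 in mca4. In rif8520 it went from -0.16 to -1.67, and nfsa had no value at day 20. Tpsb2, a mast cell tryptase, rose in nrs1 from 4.15 and 4.17 to 7.48 and 7.55 (3.36 ± 0.096). The mast cell carboxypeptidase Cpa3 changed by 1.05 ± 0.18 (adjusted p = 0.0541 with missing values at the floor). Group means of Tpsb2 at the compared days lay between 3.67 and 5.40 in the other tumours, scc7 included. In scc7 Tpsb2 went from 5.02 to 5.40 and Cpa3 from 2.86 to 5.84. In nfsa Tpsb2 went from 4.37 to 4.43 and Cpa3 from 1.36 to 3.59. Of 11 tested mast cell genes 6 rose in nrs1, and Hdc, the histamine enzyme, and Kit, the stem cell factor receptor, fell (-0.53 and -0.26). The summed intensity of the list was 53.7 to 54.6 at day 5 and 220 to 231 at day 20, and 35.9 to 36.6 and 41.6 to 43.9 without Tpsb2. The lectin Cd209a, found on dendritic cells, rose by 2.09 ± 0.13 and the factor Irf8 fell by 1.02 on the log2 scale (-1.02 ± 0.12). Of 15 dendritic cell genes 6 rose and 2 fell.

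Many genes induced by interferon gamma and some genes of cytotoxic cells were lower at day 20. Ido1, an enzyme that breaks down tryptophan, read 4.35 and 4.38 and then 0.18 and 0.05 (-4.25 ± 0.15, 19.1-fold lower, adjusted p = 3.43e-20). The GTPase genes Gbp4, Igtp, Iigp1 and Irgm2 changed by -1.37 ± 0.10, -1.28 ± 0.11, -1.23 ± 0.11 and -1.19 ± 0.098. Of 17 tested members of this list 12 fell and 0 rose (median -0.57). Ifng, the cytokine itself, read 1.47 and 1.33 and then -0.66 and -0.65 (-2.05 ± 0.13, adjusted p = 4.45e-14). The pore protein Prf1 and the killer cell receptors Klrc1 and Klrk1 changed by -1.46 ± 0.10, -1.39 ± 0.13 and -1.04 ± 0.10, with no overlap between days. Of 8 tested granzyme genes 6 fell and 0 rose (median -1.32), and the 2 that did not pass were Gzmb (-0.077) and Gzmk (-0.032). Other cytotoxic genes did not pass either, among them the granule protein Nkg7 (-0.10).

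Chains of the T cell receptor complex gave other values. Cd3d read 1.78 and 1.79 and then 1.70 and 1.82 (adjusted p = 0.805), and Cd3g rose by 0.54 ± 0.10. Foxp3, the factor of regulatory T cells, rose by 0.30 ± 0.10 (adjusted p = 0.0134). Over the whole T and NK cell list 13 of 31 tested genes fell and 2 rose (median -0.10), and the summed intensity was 105 to 107 at day 5 and 77.5 to 80.7 at day 20. The antiviral genes Ifit1, Oasl1 and Mx1, induced mainly by type I interferon, changed by -1.48 ± 0.080, -1.31 ± 0.11 and -0.97 ± 0.10, and of 27 interferon-stimulated genes 10 fell and 4 rose. With missing values at the floor Ifit1 did not pass (adjusted p = 0.476). Of 12 tested genes of class I antigen presentation 5 rose and 2 fell, a list whose median changed sign after quantile normalization, with Psmb8 and Psmb9, subunits of the immunoproteasome, at 0.60 ± 0.12 and 0.50 ± 0.11. With the gamma-ray arrays in the fit Psmb9 did not pass (adjusted p = 0.106).

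Macrophage genes were mostly lower. Arg1 (arginase) read 6.48 and 6.39 and then 4.60 and 4.47 (-1.90 ± 0.11, adjusted p = 4.84e-15), Chil3, a chitinase-like protein, changed by -1.65 ± 0.10 and the Fc receptor Fcgr4 by -1.28 ± 0.10. Of 29 tested macrophage and monocyte genes 15 fell and 4 rose (median -0.34), and the summed intensity was 961 to 986 at day 5 and 747 to 779 at day 20. Gpnmb and Mmp12, genes of lipid-laden and tissue-remodelling macrophages, were among the 4 that rose (0.86 ± 0.19 and 0.67 ± 0.10). In the neutrophil and acute inflammation list 8 of 23 rose and 7 fell. The part of these cell types in the other results was not tested.

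Vessel and matrix genes fell. The endothelial genes Vwf (von Willebrand factor) and Plvap (a diaphragm protein) read 2.48 and 2.31 against 0.88 and 0.77, and 2.34 and 2.31 against 1.15 and 0.97. Of 26 tested endothelial genes 18 fell and 2 rose (median -0.51), with a summed intensity of 79.6 to 82.4 at day 5 and 54.0 to 56.4 at day 20. The exceptions were Cd34 (1.54 ± 0.13), also a marker of stem cells, and Erg, while the junction gene Cdh5 did not pass. Notch4 and its ligand Dll4, active in vessels, changed by -1.14 ± 0.14 and -0.88 ± 0.12. The collagens Col5a2 and Col1a1 and the cross-linking enzyme Loxl1 changed by -1.34 ± 0.11, -1.16 ± 0.15 and -1.19 ± 0.11, and 22 of 38 tested fibroblast and matrix genes fell and 4 rose (median -0.44). With the gamma-ray arrays in the fit Col1a1 did not pass (adjusted p = 0.0699). Of 15 smooth muscle and pericyte genes 8 fell, Pdgfrb by 1.07 on the log2 scale (-1.07 ± 0.12).

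Most skeletal muscle genes and some fat cell genes moved the other way. Of 35 tested skeletal muscle genes 26 rose and 4 fell (median 0.59), with a summed intensity of 569 to 574 at day 5 and 791 to 827 at day 20. Mybpc1, a myosin-binding protein, rose by 1.38 ± 0.11, and the ventricular and slow light chain Myl2 and the calcium pump regulator Sln changed by -1.48 ± 0.15 and -1.31 ± 0.10. With the gamma-ray arrays in the fit none of these 3 passed (adjusted p = 0.248, 0.0881 and 0.215). Adipoq, the hormone adiponectin of fat cells, rose from 1.14 and 1.03 to 4.21 and 4.27 (3.16 ± 0.18). Of 9 tested adipocyte genes 6 rose and 1, Cidea, fell (-1.30 ± 0.28). The median of this list was 0.22, beside 0.11 for all genes. After quantile normalization 4 adipocyte genes rose and 2 fell. Fabp4, another fat cell gene, did not pass. How much muscle or fat was dissected with each tumour is not given in the labels, and its part in these values was not tested.

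Targets of p53 split. Cdkn1a (p21), which halts the cycle after damage, read 6.72 and 6.37 and then 5.54 and 5.33 (-1.11 ± 0.13, adjusted p = 1.5e-08). Mdm2, which degrades p53, read 3.26 and 3.14 and then 1.90 and 2.25 (-1.13 ± 0.14). Ccng1 (cyclin G1) read 5.83 and 5.94 and then 5.98 and 6.05, which did not pass (adjusted p = 0.291), and Plk3, a stress kinase, rose from 2.27 and 2.39 to 4.34 and 4.36 (2.02 ± 0.11), and is in the day 20 set described at the end. Of 28 tested targets 10 fell, 6 rose and 12 did not pass (median -0.095). The inducible chaperone Hspa1a and the small heat shock protein Cryab changed by -1.39 ± 0.11 and -1.07 ± 0.11, and of 19 immediate early genes 9 fell and 2 rose. Egfr, the growth factor receptor of squamous cells, rose by 0.58 ± 0.083 and Wnt7a fell by 0.99 on the log2 scale (-0.99 ± 0.090).

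The change in nrs1 was then set against the mean change of rif8520, nfsa, mmca and mca4 over the same days and dose. Of 14960 genes 26.5% changed more upward in nrs1 and 16.7% more downward. Of the late squamous list 22 of 27 genes differed downward and 1 upward (median difference -1.74), led by Crct1 (-3.96 ± 0.25) and Rptn (-3.20 ± 0.13). At day 5 these genes were lower in the other tumours by the median of 4.17 given above, and their mean there was within 1 log2 unit of the floor for 2 of the 27. That count does not show how many had room to fall, since some were low and level above the floor. In the 4 tumours on both days, group means of Lce3c lay between 1.77 and 2.38 and those of Krt4 between 1.41 and 1.83. Where a gene had no room to fall there, its difference restates the fall in nrs1. Outside the list Kprp differed by -5.17 ± 0.35 and Lce3a by -4.24 ± 0.55. In the 4 other tumours the median change of this list lay between -0.23 and 0.061. Single genes of the squamous lists fell in the mammary carcinomas as well. Krt6b changed by -3.28 in mmca and -3.14 in mca4, more than in nrs1, Sprr1a by -3.31 and -2.41, Cnfn by -2.27 and -2.93 and Klk6 by -1.80 and -1.30. Krt16, level in nrs1, changed there by -1.98 and -1.92. S100g had the largest downward difference (-6.72 ± 0.20), with changes of 1.21 to 3.62 in the 4 other tumours, for example from 0.25 to 3.87 in mca4.

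**Figure D4:**
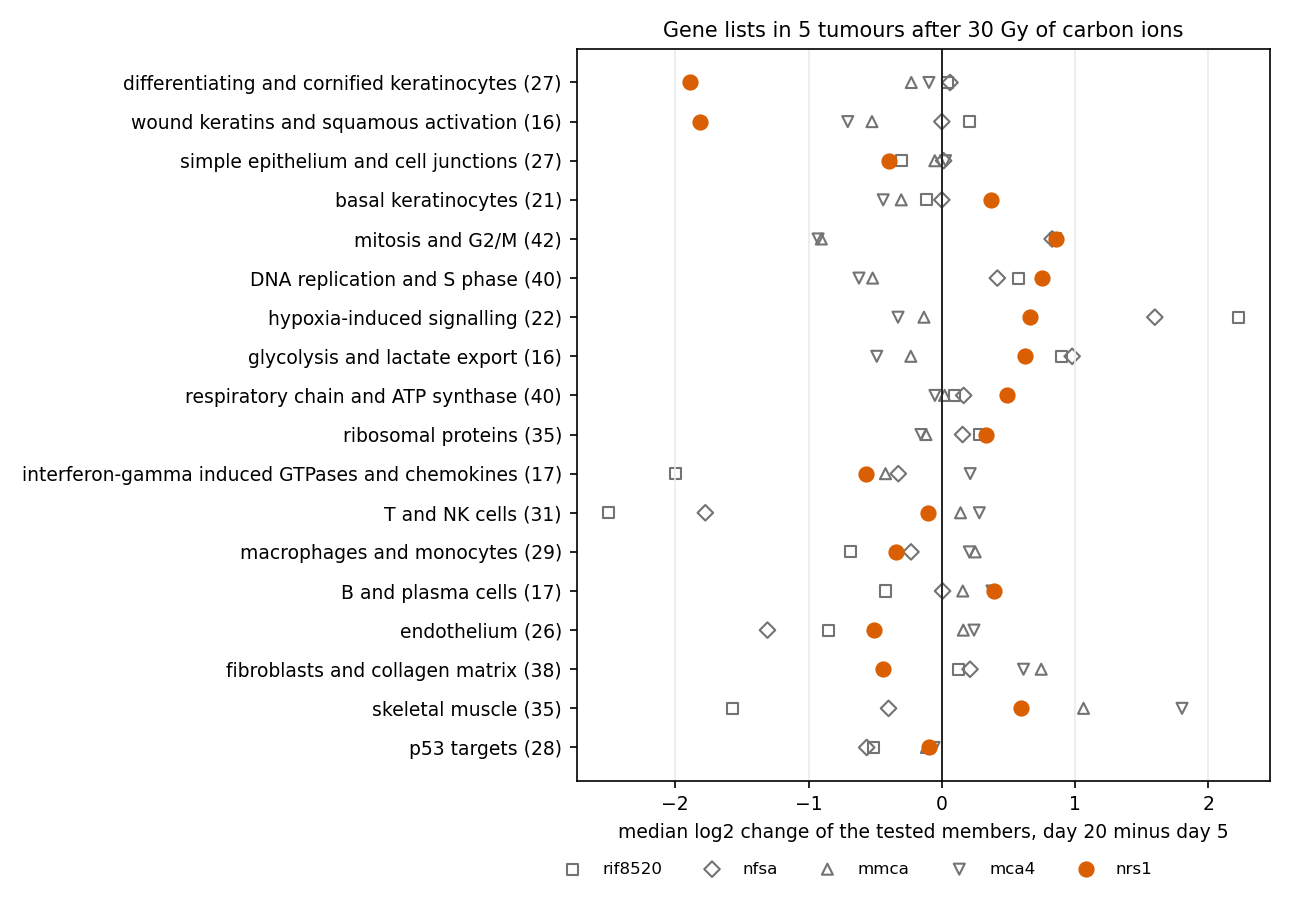
Median log2 change from day 5 to day 20 of the tested members of 18 gene lists (number tested in brackets) in nrs1 (orange) and in rif8520, nfsa, mmca and mca4 (open symbols). The nrs1 point is the lowest for the 2 squamous lists, near -1.9 and -1.8, and for mitosis it lies with the fibrosarcomas near 0.9 and opposite the mammary carcinomas near -0.9.

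Mitotic genes differed upward in 40 of 42 cases (median 0.83). Their median change was 0.85 in rif8520 and 0.83 in nfsa, close to the 0.86 of nrs1, and -0.90 in mmca and -0.93 in mca4. The difference from the mean of the 4 tumours therefore combines tumours that moved opposite ways. Fibroblast and matrix genes differed downward in 27 of 38 cases (median -0.88), with list medians from 0.12 to 0.75 in the other tumours. The B cell genes Ms4a1 (5.09 ± 0.34) and Mzb1 (4.75 ± 0.19) and most immunoglobulin segments differed upward, Igkv6-20 by 6.60 ± 0.22. Igkv4-55 differed downward (-0.58) and Ighv1-77 gave 0.12 (adjusted p = 0.652). Some segments rose in the mammary carcinomas too, Igkv9-120 by 4.14 in mmca and 3.86 in mca4 and Igkv4-68 by 3.51 in mca4. For T and NK cell genes the sign turned: 21 of 31 differed upward and 2 downward, with list medians of -2.50 in rif8520 and -1.77 in nfsa. Gzma, a granule protease, fell in nrs1 (-1.46 ± 0.11) and yet differed upward by 2.46 ± 0.13. With missing values at the floor its fall did not pass (adjusted p = 0.298). Across genes the change in nrs1 correlated weakly with that in rif8520 (r = 0.20) and nfsa (0.24) and hardly with that in mmca (-0.014) or mca4 (-0.050), over about 14976 genes that are not independent replicates. In scc7, from day 5 to day 42, the median of the late squamous list was 0.022. Its group means of Krt13, Krt5 and Krt14 lay between -3.47 and -0.93 on both days, whereas in mmca and mca4 those of Krt5 and Krt14 lay between 3.78 and 6.57.

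**Figure D5:**
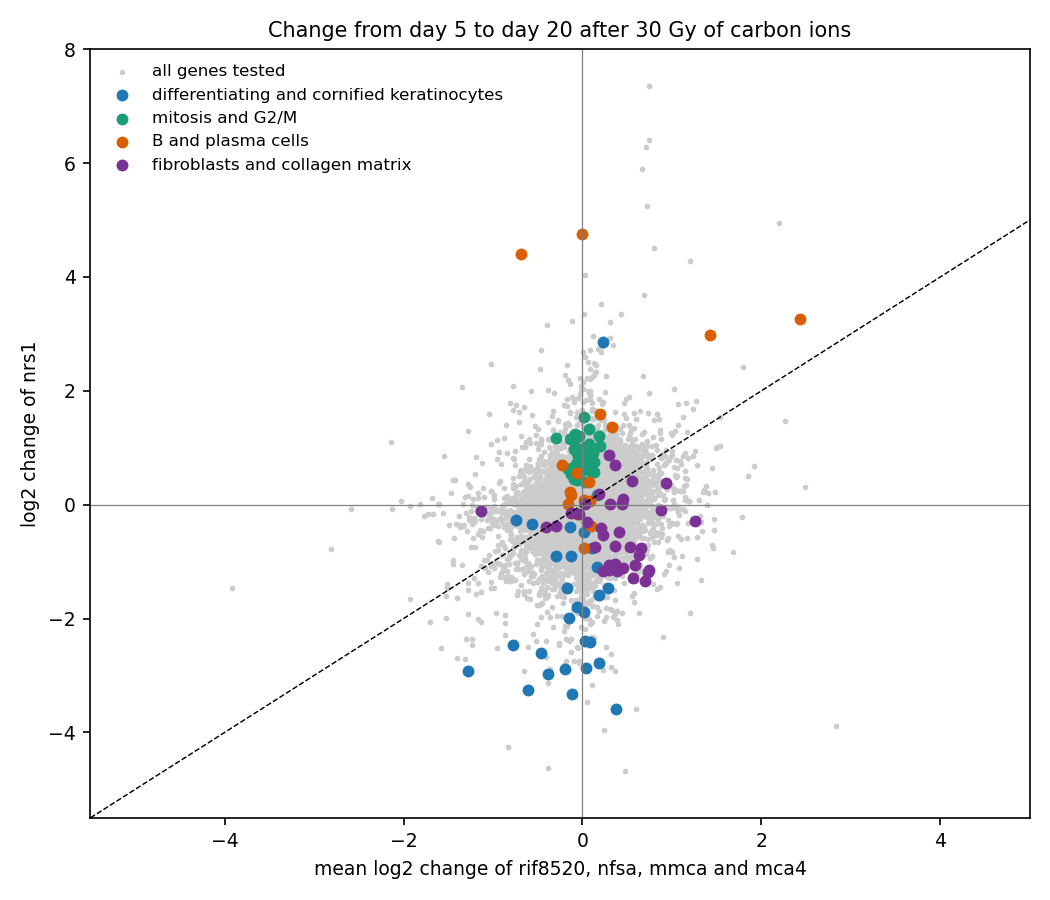
Log2 change of each tested gene in nrs1 (vertical) against the mean change of the 4 other tumours (horizontal), with 4 lists coloured and the line of equal change dashed. Most late keratinocyte genes lie below the line and mitotic genes above it, and Mzb1 and Ms4a1 are the highest B cell points.

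After gamma rays nrs1 was sampled at day 8 (30 Gy) and day 15 (50 Gy), with 3 arrays each, so beam, dose and day all differ and values are only set side by side. In a fit over all carbon and gamma-ray arrays, the later group minus the earlier gave a median of 0.046 for the late squamous list, against -1.85 after carbon ions with the same 16 genes. Mitotic genes gave -0.23 against 0.85, and interferon gamma genes 1.61 against -0.55. Krt78 read 3.59, 3.97 and 4.25 at day 8 and 3.56, 4.55 and 4.85 at day 15 after gamma rays. After carbon ions it read 6.67 and 6.64 at day 5 and 3.57 and 3.47 at day 20.

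A last set was defined after the values were seen: genes whose 2 arrays in 1 carbon group lay at least 1 log2 unit above the mean of every other carbon group, while the other 19 groups spanned at most 1.5. There were 60 such genes at day 20 of nrs1 and 34 at day 5, against 0 to 7 in the other 18 groups. A group had to exceed the other times of its own tumour too. The groups of mmca and mca4, which were sampled at more times than nrs1, all gave 0. The closer comparison is with rif8520, nfsa and scc7, sampled on as many days as nrs1, which gave 0 to 7. Among the 60 were Itgb3, a platelet and vessel integrin, at 3.83 and 3.88 and then 7.38 and 7.37, with all other groups between 3.66 and 4.70, and the ubiquitin ligase adaptor Dcaf11 at 4.77 and 4.89 and then 7.89 and 7.71. The synaptic genes Rims4 and Nrg3 rose by 2.69 ± 0.086 and 2.79 ± 0.11, and the olfactory receptor Olfr143 and the cardiac factor Gata5 were members. Only 3 of the 60 belong to a gene list (Dsg1b, Plk3 and Dhcr7). The heavy chain segments Ighv1-33 and Ighv6-6, counted above among the immunoglobulin rises, are members too. The 2 arrays of day 20 differed by a median of 0.090 in these genes. In the gamma arrays of nrs1, 55 of them were measured, with a median change of -0.059. What sets them apart was not tested.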

How the data were processed

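Array intensity was used in the form the authors deposited, on a linear scale, with each array's median near 1; RNA extraction with ISOGEN and RNeasy and Cy5 labelling are per the labels' protocols. Scanner settings, background method and normalization software are not given in the sources used here. Values under 0.0747, the 5th percentile of positive carbon values, were set to it and log2 was taken; missing values stayed missing. Of 36227 probes, 21615 had 1 symbol in the platform annotation, updated through RefSeq. A probe needed a value on 90% of the 40 carbon arrays and on all 4 nrs1 arrays and a mean above the 20th percentile, and the brightest probe stood for a gene (14977 genes). limma 3.58.1 in R 4.3.3 fitted means of 20 groups (20 residual degrees of freedom) with a variance trend, 2-sided, with Benjamini-Hochberg adjustment. A simulation with known changes was used to test the fit. Named genes were the 15 largest rises and falls, up to 5 leading called members of each of 44 lists, p53 and label markers, and the 8 largest differences from other tumours each way. Other genes (among them Krt4, Krt13, Krt16, Lor, Dsg1b, Sprr2e, Kit, Cd3d, Cd3g, Foxp3, Gpnmb, Mmp12, Erg, Cdh5, Fabp4, Pax5, Tnfrsf17, Dcaf11 and Rims4) were named after their values were seen. The comparison, lists and members were chosen with earlier results of these data known. The number of arrays limits the precision. Alternatives were other scaling, filters, floors, probe rules, weights, array sets, a block on replicate number and leaving out each array. Figures used matplotlib 3.10.9.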

Additional observations from a re-analysis of the deposited data

Results flagged for a closer look

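Of 14960 genes, 6468 differed between the change in nrs1 and the mean change of the 4 other tumours (limma, adjusted p under 0.05). The 8 largest downward differences (log2) were S100g at -6.72, Kprp at -5.17, Lce3a at -4.24, Gcnt3 at -4.19, Pllp at -4.19, Crct1 at -3.96, Lce3b at -3.52 and Ido1 at -3.42. In the 4 other tumours at day 5, group means lay between -2.80 and -1.80 for Kprp and between -2.88 and -2.43 for Lce3a. The floor was -3.74, so these 2 genes had no room there to fall as far as in nrs1. The 8 largest upward differences were Igkv6-20 at 6.60, Igkv15-103 at 5.65, Ighv1-54 at 5.58, Igkv19-93 at 5.23, Ms4a1 at 5.09, Mzb1 at 4.75, Igkv4-77 at 4.53 and Wfdc18 at 4.01. Wfdc18, a small secreted protein, read 3.35 and 3.31 at day 5 of nrs1 and 7.45 and 7.29 at day 20, while its group means in mmca and mca4 lay between 7.69 and 7.80 on both days. Each tumour and day had 2 arrays, too few to single out an array.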

How the results depend on the processing

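With the gamma-ray arrays added to the fit, 4454 genes were called in nrs1 (12246 tested) and 3702 against the other tumours, with fewer genes testable. Under the remaining alternatives the counts stayed within 1.5 times of the 7046, 6468 and 11079 called for the change, the difference and the label. Leaving out 1 array gave 5839 to 6063, 5362 to 5677 and 9867 to 11236. Same-numbered arrays of the 2 days did not deviate together (r = -0.034), and a replicate block gave 7679, 7119 and 10615. None of the named genes' changes turned direction; the calls lost were 41 of 213 with all arrays, 28 of 241 with missing values at the floor 16 and 14 of 241 without replicate 2 of day 20 and replicate 1 of day 5 (6 and 7 without the others), and 14 of 241 with quantile normalization, under which 1 call (Epcam) was gained. Quantile normalization also turned the sign of 7 of 44 list medians, all of 0.23 or less in size. With 2 arrays a day, small changes of dim genes are the least certain.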
